A study of Homo sapiens with 6 samples.

Results

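The IFITM genes encode small interferon-induced transmembrane proteins. The family was followed through the 4 transcript clusters (sets of probes that read 1 transcribed locus) annotated to IFITM1, IFITM2, IFITM3 or IFITM5, out of 33297 on the array. Each gene had 1 cluster of its own, and 0 clusters were shared by several of these symbols. RNA of HEK293, a cell line of human embryonic kidney origin obtained from ATCC, was hybridised to 3 treatment and 3 control arrays of the Affymetrix Gene 1.0 ST type, with 1 biotin-labelled sample per array. The treatment samples are described at source as HEK cells given a Neo vector. The control samples are described there as given a transient vector, whereas the design text sets cells transfected with the empty plasmid pCMV9 against untreated cells. It is therefore not settled from the labels whether the control cells received DNA. All 6 samples share the line and the RNA kit, and no label read here gives a dose or a time after transfection. The stated question was which mediators go with an anti-HIV effect seen on transfecting an empty vector.

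IFITM proteins sit in cellular membranes and hinder the fusion of enveloped viruses with them. IFITM1 is found largely at the cell surface, while IFITM2 and IFITM3 are taken up into endosomes through a tyrosine-based sorting signal near the amino terminus that IFITM1 lacks. IFITM1, IFITM2 and IFITM3 are classical targets of interferon, limit HIV among other viruses and can be carried into HIV particles. IFITM5, also called BRIL, is a bone protein made by osteoblasts and is not known as an interferon target. In the RefSeq gene table the 4 genes lie side by side on chromosome 11, in the order IFITM5, IFITM2, IFITM1 and IFITM3. Interferon acts on such genes through the factor complex ISGF3, of which IRF9 is a part and which binds the interferon-stimulated response element (ISRE). A further element of interferon-responsive genes is the gamma-activated site (GAS).

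The sequences around the starts of the genes are shown because they hold the letters of these elements. The RefSeq promoter table (build GRCh38.p14) matched 3 of the 4 genes; IFITM2 was not matched. Each window runs 5′ to 3′ along the gene, with 250 bases before the annotated start and 10 bases from the start on, and capitals mark matches to the ISRE letters, which are GAAA, any 2 bases and GAAA again. The window of IFITM1 lies at chr11:313790-314049 on the plus strand, that of IFITM3 at chr11:320851-321110 and that of IFITM5 at chr11:299517-299776, both on the minus strand.
IFITM1: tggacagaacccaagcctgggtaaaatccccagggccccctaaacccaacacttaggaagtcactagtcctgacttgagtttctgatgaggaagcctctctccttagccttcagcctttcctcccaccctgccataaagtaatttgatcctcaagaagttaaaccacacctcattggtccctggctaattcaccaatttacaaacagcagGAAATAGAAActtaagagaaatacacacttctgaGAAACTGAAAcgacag
IFITM3: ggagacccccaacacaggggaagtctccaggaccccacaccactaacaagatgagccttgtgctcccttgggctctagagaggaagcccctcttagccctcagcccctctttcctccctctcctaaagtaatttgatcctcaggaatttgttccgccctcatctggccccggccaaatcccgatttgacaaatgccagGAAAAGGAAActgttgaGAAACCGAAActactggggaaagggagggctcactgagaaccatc
IFITM5: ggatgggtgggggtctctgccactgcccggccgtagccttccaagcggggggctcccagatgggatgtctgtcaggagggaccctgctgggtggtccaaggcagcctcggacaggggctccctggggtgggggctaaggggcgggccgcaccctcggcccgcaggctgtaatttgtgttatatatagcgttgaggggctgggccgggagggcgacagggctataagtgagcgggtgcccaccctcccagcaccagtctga

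The windows of IFITM1 and IFITM3 each held 2 ISRE matches, and that of IFITM5 held 0. In IFITM1 these were GAAATAGAAA, from 40 to 31 bases before the start, and GAAACTGAAA, from 6 bases before the start to base 4 of the transcript. In IFITM3 they were GAAAAGGAAA, from 52 to 43 bases before the start, and GAAACCGAAA, from 35 to 26 bases before it. The second match in each gene also had the stricter letters, GAAAC, any 1 base and GAAA. The GAS letters TTCNNNGAA occurred once, in IFITM1, as TTCTGAGAA from 12 to 4 bases before the start, overlapping the second ISRE match there. Both strands were searched. Over all 27305 promoter windows of the same length, 3.26% held the ISRE letters, 0.685% the stricter ones and 7.05% the GAS letters. Among the 73 genes with a window that rose in the treatment arrays (below), 39 (53.4%) held the ISRE letters. Of the same 73, 21 (28.8%) held the stricter letters and 16 (21.9%) the GAS letters. IFITM1 and IFITM3 are themselves among the 73, and the counts are given as a description without a test. Aligned end to end, the IFITM1 and IFITM3 windows were identical at 66.4% of alignment columns, against 46.9% for IFITM1 with IFITM5 and 48.7% for IFITM3 with IFITM5. A match describes letters and does not show that a factor was bound. The window length of 260 bases was chosen after the sequences were seen. With 250 bases, IFITM1 kept 1 of its 2 ISRE matches and lost its only match to the stricter letters.

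IFITM1 and IFITM3 rose in the treatment arrays, and IFITM2 and IFITM5 did not pass the test. The values are the deposited linear intensities. Changes are differences of log2(intensity + 16), treatment minus control, tested with limma over all clusters. "Rose" means a Benjamini-Hochberg adjusted p under 0.05. Of the 4 genes 2 rose, where 0.357% of all 33297 clusters did, and 0 of 4 fell, where 0.015% did. The genes were chosen with earlier results of these data known, so these counts are a description. Because each array read the RNA of many cells together, more responding cells and more RNA per cell cannot be told apart.

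IFITM1 read 1122, 1873 and 2218 in treatment replicates 1, 2 and 3, against 121, 99.7 and 162 in control replicates 1, 2 and 3. Every treatment array was thus far above every control array, with no overlap. The means were 1738 ± 560.1 in treatment and 128 ± 31.9 in control arrays (SD, n = 3 each). The log2 change was 3.58 ± 0.27 (SE), with a 95% interval from 3.01 to 4.15 and a limma adjusted p of 7.34e-06. On the offset scale this is an 11.9-fold rise, with an interval from 8.03-fold to 17.7-fold. It was the change of rank 13 among all clusters, counted from the largest increase.

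IFITM3, the member best known for stopping viruses in endosomes, read 359, 621 and 656 in treatment replicates 1, 2 and 3, against 58.5, 87.6 and 57.4 in control replicates 1, 2 and 3. The lowest treatment array was again well clear of the highest control array. Its means were 545 ± 163 in treatment and 67.8 ± 17.1 in control arrays (SD, n = 3 each). The log2 change was 2.72 ± 0.25 (SE), with a 95% interval from 2.17 to 3.26 and a limma adjusted p of 6.53e-05, or 6.57-fold on the offset scale (4.50 to 9.60). That change had rank 22 among all clusters. With no offset before the log2, the change was 2.99 and the call was lost (limma adjusted p = 0.0687).

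IFITM2, the endosomal relative closest to IFITM3, read 979, 1327 and 1261 in treatment replicates 1, 2 and 3, against 698, 747 and 733 in control replicates 1, 2 and 3. The groups did not overlap here either, and the control arrays lay close together. The means were 1189 ± 185 in treatment and 726 ± 25.2 in control arrays (SD, n = 3 each). The log2 change of 0.69 ± 0.20 (SE) had a 95% interval from 0.25 to 1.12. It did not pass over all clusters (limma adjusted p = 0.457, unadjusted p = 0.00455). In 7.47% of all clusters every treatment array stood above every control array, as for 3 of the 4 IFITM genes, and 7.3% of clusters had an unadjusted p under 0.05 in either direction.

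IFITM5 was dim, with 23.9, 39.0 and 36.2 in treatment replicates 1, 2 and 3, against 17.8, 25.6 and 20.5 in control replicates 1, 2 and 3. The lowest treatment array fell inside the control range. The means were 33.0 ± 8.04 in treatment and 21.3 ± 3.97 in control arrays (SD, n = 3 each). The log2 change was 0.39 ± 0.21 (SE), with a 95% interval from -0.064 to 0.84 and a limma adjusted p of 0.708. Both means lay inside the range of the 360 clusters of olfactory receptor genes, a class not known to be active in this line, whose 95th percentile was 67.4 in treatment and 51.2 in control arrays. An IFITM5 signal could therefore not be told from background. The olfactory receptor clusters had a median log2 change of 0.12, against 0.012 over all clusters.

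**Figure D1:**
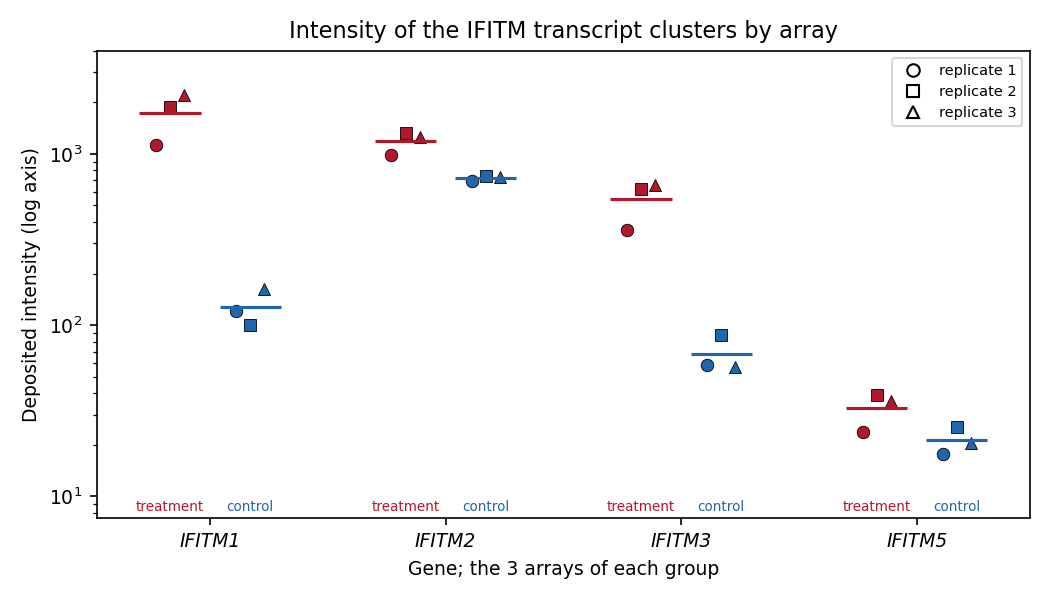
Deposited intensity (log axis) of IFITM1, IFITM2, IFITM3 and IFITM5 on each of the 3 treatment arrays (red) and 3 control arrays (blue), with marker shapes for the replicate numbers and a line at each group's mean. IFITM1 and IFITM3 show wide gaps between the groups, IFITM2 a narrow gap over a control mean of 726, and the groups of IFITM5 overlap.

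Treatment replicate 1 had the lowest treatment intensity in all 4 genes, of which IFITM5 could not be told from background. Of the 119 clusters that rose, 96 (80.7%) were lowest in that array as well, against 31.2% of all clusters. Relative to the control mean, IFITM1 stood 3.01, 3.74 and 3.98 higher in treatment replicates 1, 2 and 3 on the log2 scale. IFITM3 stood 2.18, 2.95 and 3.02 higher in the same arrays, and IFITM2 0.42, 0.86 and 0.78 higher. Over the clusters that rose the medians were 1.53, 2.16 and 1.98 in those arrays. The shared feature was the low value of replicate 1: replicate 3 was highest for IFITM1 and IFITM3, whereas replicate 2 was highest for IFITM2, IFITM5 and 75 of the 119 clusters that rose. Without treatment replicate 1 the log2 changes were 3.86 for IFITM1, 2.98 for IFITM3, 0.82 for IFITM2 and 0.53 for IFITM5.

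Treatment replicate 3 stood farthest from the other arrays (mean Pearson's r with them 0.963, against 0.972 to 0.978 for the others). Without it the log2 changes were 3.37 for IFITM1, 2.56 for IFITM3, 0.64 for IFITM2 and 0.33 for IFITM5. Median intensity per array ran from 77.2 to 84.2. The 6 markers of HEK293 identity, which include vimentin (VIM), keratin 8 (KRT8) and the kidney transcription factor PAX2, summed to between 6237 and 6617 in treatment and between 7011 and 7266 in control arrays, and 0 of 6 passed. PAX2 went against that sum, with 98.1, 106 and 113 in treatment arrays and 44.4, 57.4 and 66.4 in control arrays (log2 change 0.76, limma adjusted p = 0.328). The part of these markers in the IFITM values was not tested. The 7 measured leukocyte markers summed to between 309 and 452 in treatment and between 310 and 426 in control arrays, with 0 of 7 passing. PTPRC, which marks leukocytes at large, averaged 17.1 in treatment and 23.4 in control arrays, inside the range of the olfactory receptor clusters. CD14, from the same list, was brighter, with means of 212 in treatment and 182 in control arrays and overlapping groups. Of the 7 measured osteoblast markers, included because IFITM5 is made there, 0 passed, and they summed to between 563 and 647 in treatment and between 560.1 and 749 in control arrays. IBSP was the brightest of them, with means of 255 in treatment and 343 in control arrays and overlapping groups. SPP1 and DMP1 were dim, with means of 30.1 and 33.0 in treatment and 14.0 and 20.0 in control arrays. These means lay inside the range of the olfactory receptor clusters, so their signals could not be told from background. In SPP1 and DMP1 every treatment array was above every control array, as in 7.47% of all clusters (log2 changes 0.62 and 0.43, limma adjusted p = 0.61 and 0.697). The log2 change was positive for 5 of the 7 osteoblast markers, and the olfactory receptor clusters had a median of 0.12. No share of positive changes over all clusters was computed, so that count is a description. With 0.357% of all clusters higher and 0.015% lower, a count of 0 in each marker list is near the background. Such counts are no result about the markers.

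**Figure D2:**
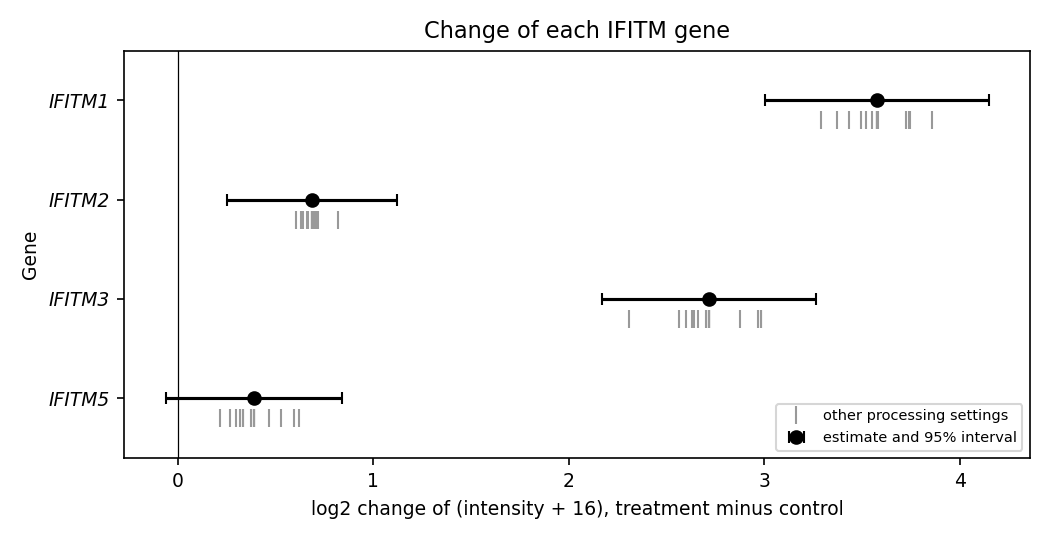
Log2 change of (intensity + 16), treatment minus control, for each IFITM gene, as a point with its 95% interval from limma, with grey ticks below it for the other processing settings. IFITM1 and IFITM3 lie above 2 under every setting, IFITM2 between 0.60 and 0.82, and IFITM5 between 0.22 and 0.62.

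The responses of IFITM1, IFITM2 and IFITM3 were compared by taking, on each array, the difference of log2(intensity + 16) between 2 members and setting treatment arrays against control arrays. Changes are compared in this way, not levels, since probes of different genes are not on 1 scale. IFITM1 changed by 2.89 ± 0.26 (SE) more than IFITM2 (95% interval 2.17 to 3.61). IFITM2 minus IFITM3 gave -2.03 ± 0.20 (-2.59 to -1.47), so IFITM3 changed more. IFITM1 minus IFITM3 gave 0.86 ± 0.33, with an interval from -0.060 to 1.78 that includes 0. In these 3 pairs the treatment and control arrays did not overlap in the difference. The exact two-sided permutation test gave p = 0.1 for each pair and 0.1 after adjustment over all 6 pairs of the family, which is the smallest p that 3 against 3 arrays allow, so no pair could pass 0.05. The other 3 pairs involve IFITM5 and are not reported, because its signal could not be told from background. IFITM2 and IFITM3 are near-identical in sequence, so the probes of one may take up RNA of the other. Probe sequences were not analysed here, and the part of such cross-hybridisation in the values of IFITM2 and IFITM3 was not tested.

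The genes that flank the cluster gave a local comparison, in which 0 of 12 measured neighbours passed in either direction. With 0.357% of all clusters higher and 0.015% lower, a count of 0 among 12 is near the background and is no result about the neighbours. Their median log2 change was -0.010, against 0.012 over all clusters, and the individual changes ran from -0.35 to 0.61. On the far side of IFITM3, the glycosyltransferase gene B4GALNT4 had the largest of them. It read 33.4, 57.4 and 78.7 in treatment arrays, against 23.5, 38.6 and 28.3 in control arrays, so the groups overlapped (0.61 ± 0.25 SE, limma adjusted p = 0.67). Its means of 56.5 and 30.1 lay below the 95th percentile of the olfactory receptor clusters, 67.4 in treatment and 51.2 in control arrays. On the IFITM5 side, the collagen-glucosidase gene PGGHG gave 0.18 and the inflammasome gene NLRP6 0.18. HRAS (-0.35), the ribonuclease inhibitor RNH1 (-0.33) and the phosphatidylserine synthase gene PTDSS2 (-0.31) had the other lowest unadjusted p-values, and none passed. PSMD13 had no cluster of its own symbol.

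**Figure D3:**
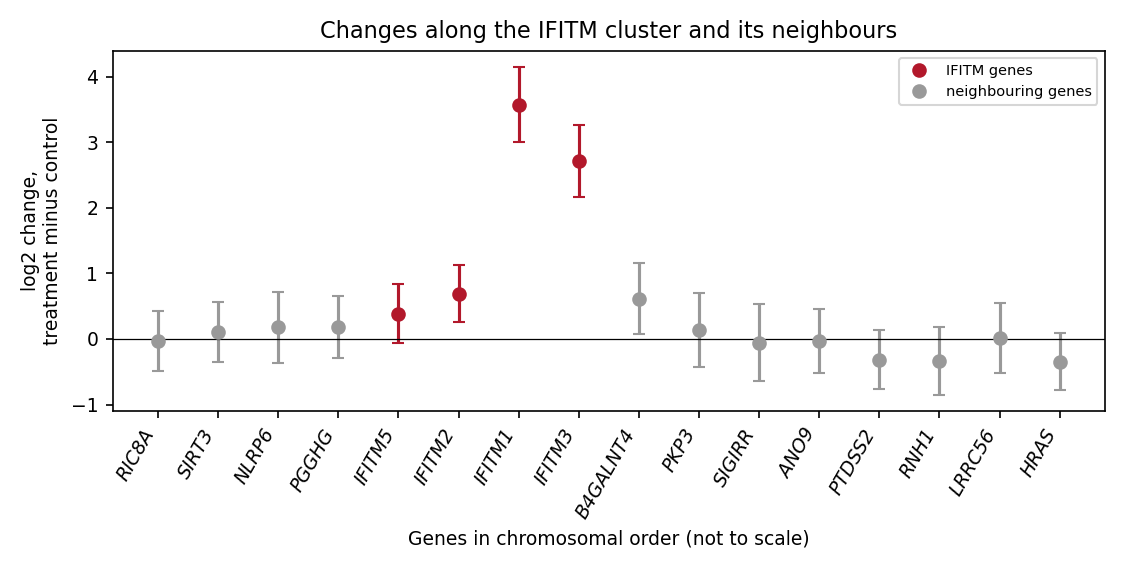
Log2 change, treatment minus control, with 95% intervals from limma, for the 4 IFITM genes (red) and 12 measured neighbours (grey) in chromosomal order, not to scale. IFITM1 and IFITM3 stand at 3.58 and 2.72, while the neighbours lie between -0.35 and 0.61.

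More distant relatives, the dispanins that share the CD225 domain, showed no called change, again near the background share. Of 9 listed, 7 were measured and 0 rose or fell, with a median log2 change of 0.051 and a range from -0.33 to 0.23. IFITM10, which carries the family name but lies apart from the cluster on chromosome 11, read 46.8, 67.8 and 69.6 in treatment arrays, against 69.2, 44.1 and 39.1 in control arrays. The groups overlapped, and IFITM10 differed by 0.23 ± 0.23 on the log2 scale (SE; limma adjusted p = 0.844). PRRT2, a presynaptic protein, gave -0.33 (limma adjusted p = 0.791).

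Enzymes and partners known to act on IFITM proteins did not pass either, at 0 of 19, a count near the background of 0.357% higher and 0.015% lower. The list covers the palmitoyltransferases ZDHHC3, ZDHHC7 and ZDHHC20, the depalmitoylase ABHD16A, the ubiquitin ligase NEDD4, the methyltransferase SETD7 and demethylase KDM1A, the kinase FYN, the 5 subunit genes of the AP2 adaptor that reads the sorting signal, VCP, the protease ZMPSTE24, VAPA and OSBP, and the tetraspanins CD81 and CD9. Their median log2 change was -0.13, from -0.41 to 0.14, and 0 of 19 had an unadjusted p under 0.05, against 7.3% of all clusters. AP2A1, the alpha subunit of AP2, had the lowest p, with 426, 445 and 419 in treatment arrays, against 491, 608 and 637 in control arrays (-0.41 ± 0.20 SE, limma adjusted p = 0.696). ZDHHC3 (-0.38), AP2A2 (-0.31) and VCP (-0.26) followed, with limma adjusted p-values from 0.707 to 0.779. ZDHHC20, the main palmitoyltransferase of IFITM3, gave 0.14 ± 0.21, with a 95% interval from -0.31 to 0.59.

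Among other inhibitors that act at membranes on virus entry or on viral envelope proteins, 1 of 9 measured genes rose, against 0.357% of all clusters. Before adjustment 4 of the 9 had p under 0.05, each of them higher in treatment, against 7.3% of all clusters in either direction. The list was chosen with earlier results of these data known, so both counts are a description. The scramblase PLSCR1, which hinders membrane fusion, read 1045, 1202 and 1042 in treatment arrays, against 343, 339 and 379 in control arrays, with no overlap. PLSCR1 rose by 1.59 ± 0.19 on the log2 scale (SE; limma adjusted p = 0.000824), and the call was lost with no offset (adjusted p = 0.0667). LY6E, a lipid-anchored surface protein, read 421, 560.3 and 709 in treatment arrays, against 294, 416 and 364 in control arrays (0.61 ± 0.23, limma adjusted p = 0.646). NCOA7, whose short form acts on endosomal acidification, gave 0.53 ± 0.21 (limma adjusted p = 0.67). CH25H, which makes the antiviral oxysterol 25-hydroxycholesterol, was dim, at 40.6, 38.4 and 31.7 in treatment arrays, against 17.6, 26.97 and 23.3 in control arrays, and gave 0.46 ± 0.20 (limma adjusted p = 0.68). The virion-incorporated SERINC3 and SERINC5 gave 0.096 and -0.13 without a call. Across these 9 genes the changes had a median of 0.096.

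Of the transcription factors that act on interferon-stimulated genes, 2 of 4 measured rose, IRF7 and IRF1, against 0.357% of all clusters. This list too was chosen with earlier results of these data known, so the count is a description. IRF7 read 215, 308 and 478 in treatment arrays, against 85.6, 98.5 and 82.2 in control arrays (1.67 ± 0.26 SE, limma adjusted p = 0.00699). Its call was lost with an offset of 50, 1 or none and without control replicate 1 (adjusted p = 0.102). IRF1 read 166, 239 and 204 in treatment arrays, against 77.3, 85.5 and 85.8 in control arrays (1.13 ± 0.20 SE, limma adjusted p = 0.0254). That call was lost with an offset of 1 or none, with the replicate number as a block, and without any 1 array other than treatment replicate 1, with adjusted p up to 0.285. IRF9, the DNA-binding part of ISGF3, read 397, 589 and 678 in treatment arrays, against 270, 235 and 276 in control arrays, and did not pass (1.02 ± 0.23 SE, limma adjusted p = 0.136). It passed under 3 of 16 alternatives, without clusters below the median intensity (adjusted p = 0.0352), with an intensity trend (0.0143) and without treatment replicate 1 (0.0189). IRF3, which acts downstream of nucleic acid sensors and is not itself an interferon-stimulated gene, gave -0.18 ± 0.24. The 4 genes had a median log2 change of 1.07.

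**Figure D4:**
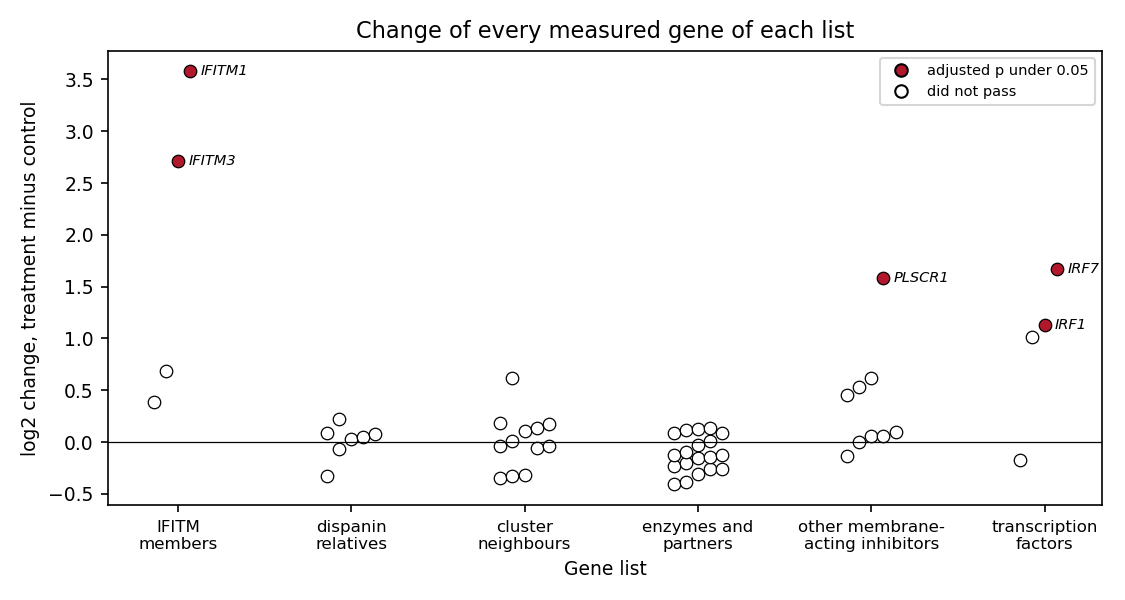
Log2 change, treatment minus control, of each measured gene in the IFITM family and in 5 gene lists, filled where the limma adjusted p was under 0.05. IFITM1 (3.58) and IFITM3 (2.72) stand above PLSCR1 (1.59), IRF7 (1.67) and IRF1 (1.13), and 0 genes passed among dispanin relatives, cluster neighbours, and enzymes and partners.

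Likeness of profile was measured as Pearson's r over the 6 arrays on the log2(intensity + 16) scale, over 19455 clusters with 1 symbol outside the family. Both groups enter that r, so the gap between them weighs heavily, and it is given as a description. The 5 genes most like IFITM1 were C8orf74 (0.998), UBE2L6 (0.998), OAS1 (0.997), DDX60 (0.997) and MX2 (0.996). UBE2L6 is the conjugating enzyme for the ubiquitin-like ISG15, OAS1 makes the activator of RNase L, DDX60 is a helicase of the antiviral response and MX2 is an inhibitor of HIV. UBE2L6 read 365, 638 and 714 in treatment arrays, against 44.8, 47.5 and 59.7 in control arrays, a log2 change of 3.09. C8orf74 was dim, with means of 30.4 in treatment and 9.96 in control arrays, and did not pass (limma adjusted p = 0.16).

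The 5 genes most like IFITM3 were APOL2 (r = 0.998), an apolipoprotein L, XAF1 (0.995), an apoptosis regulator, the RNA-binding protein gene ZNFX1 (0.993), the peptide transporter gene TAP2 (0.992) and OASL (0.992), a relative of OAS1. APOL2 read 467, 685 and 752 in treatment arrays, against 175, 197 and 171 in control arrays. All 5 rose, with log2 changes from 1.16 for ZNFX1 to 4.17 for XAF1. The call of ZNFX1 was lost under 8 of 16 alternatives, among them the replicate block (adjusted p = 0.0691) and leaving out any 1 array other than treatment replicate 1 (up to 0.215). TAP2 lost its call under 3, among them without control replicate 1 (0.0767), APOL2 under 2, OASL under 1 and XAF1 under 0. IFITM2 did not pass and was added to this search after its values were seen. Its 5 nearest profiles were the complement inhibitor gene SERPING1 (0.998), THEMIS2 (0.995), SHFL (0.993), which blocks ribosomal frameshifting, APOL1 (0.992) and UBA7 (0.992), the activating enzyme for ISG15. All 5 rose, with log2 changes from 1.27 for THEMIS2 to 2.35 for UBA7, against 0.69 for IFITM2. The calls of SERPING1 and THEMIS2 were each lost under 9 alternatives, with limma adjusted p highest with no offset (0.391 and 0.241). Among the 9 was leaving out any 1 array other than treatment replicate 1, with adjusted p up to 0.288 and 0.221. UBA7 lost its call under 5, among them without treatment replicate 3 (0.0546) or control replicate 1 (0.0782), SHFL under 3 and APOL1 under 2.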

How the data were processed

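Whole-transcript RNA of HEK293 cells was read on 6 Affymetrix arrays. The authors deposited 1 linear intensity per transcript cluster and array. Per the submitters' processing notes Partek was used; how background, normalization and probe summary were handled, and the genome build, is not given in the sources used here. Groups and replicate numbers follow the sample titles. Nothing read here ties the replicates to separate cultures, so the spread behind each p-value may be technical, and 3 arrays per group limit the precision.

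Symbols came from the platform annotation, where 19460 clusters had 1 symbol, and a gene with several clusters was read from the one of highest mean. Log2(intensity + 16), which understates changes of dim clusters, was fitted with limma 3.58.1 (lmFit, eBayes, two-sided, no block) in R 4.3.3, adjusted by Benjamini-Hochberg over the 33297 clusters. It called 119 clusters higher and 5 lower in treatment arrays. The pipeline was tested on simulated data. Alternatives were other offsets, normalizations, dim filters, variance priors, a replicate block and leaving out each array.

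Named genes were the members, other IFITM symbols, members of 5 lists that passed or had the 4 lowest p-values, and the 5 nearest profiles of each passing member; a few further list members were named after their values were seen. Members and lists were chosen with earlier results of these data known. Promoter windows came from RefSeq (GRCh38.p14) and were aligned with Biopython 1.88; their length of 260 bases was chosen after the sequences were seen.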

Additional observations from a re-analysis of the deposited data

How the results depend on the processing

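Over 16 alternatives, 15 for IFITM5, which a filter at the median intensity removes, each of the 4 IFITM genes kept its sign. IFITM1 passed under all 16, with log2 changes from 3.29 to 3.86 and limma adjusted p up to 0.0336. IFITM3 passed under 15, from 2.31 to 2.99; with no offset it was 2.99 and did not pass (adjusted p = 0.0687). IFITM2 (0.60 to 0.82, lowest adjusted p 0.0576, with an intensity trend) and IFITM5 (0.22 to 0.62, lowest 0.559) passed under none. Leaving out 1 array gave 3.37 to 3.86 for IFITM1, 2.56 to 2.98 for IFITM3, 0.60 to 0.82 for IFITM2 and 0.30 to 0.53 for IFITM5. The count of called clusters, 124, was 40 with no offset, 58 with an offset of 1, and 69 to 129 leaving out 1 array, lowest without control replicate 1 (69) and treatment replicate 2 (82). The count of called genes over the 5 lists, 3, was 0 with no offset, 1 with an offset of 1, and 1 to 4 leaving out 1 array (1 without control replicate 1; 4 without treatment replicate 1, where IRF9 passed). Clusters lower in treatment numbered 0 to 15. The cause of these shifts was not tested. Deviations of same-numbered arrays from their group means had r of -0.17, 0.084 and -0.36 for replicates 1, 2 and 3. Taken around means of only 3 arrays per group, these values cannot tell whether the numbers pair the arrays. With the replicate block 105 clusters were called, IFITM1 and IFITM3 among them (adjusted p = 4.67e-06 and 7.39e-05), and IRF1 was not (0.0891). The 3 differences among IFITM1, IFITM2 and IFITM3 kept their sign under 5 alternatives. The share of promoter windows with the ISRE letters was 3.07% for 250 bases and 3.65% for 300, choices made after seeing the data. With 250 bases IFITM1 keeps 1 of its 2 matches, GAAATAGAAA. It then loses GAAACTGAAA, its only match to the stricter letters. No row was shared by several IFITM symbols, so that planned result has no value.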
